A study of Mus musculus with 12 samples.

Results

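Cytosine modification was described at the genes of Cx3cr1, Csf1r, P2ry12, C1qa, Aif1 and Tmem119, 6 markers of microglia, out of 35312 protein-coding and long noncoding genes of the GENCODE M21 annotation (mm10). They were chosen as genes of a lineage outside the neural retina, not by any measured value. A locus here is the gene with 5 kb on each side, and every region of the deposited lists that overlapped a locus by at least 1 bp was taken. The data came from whole retina of C57 BL/6J mice at postnatal day 21 (P21). The Cre- group, labelled WT, was compared with Tet tcKO, in which floxed Tet1, Tet2 and Tet3 were recombined by the Chx10-Cre-GFP transgene in retinal progenitor cells. That transgene is known to be active in a mosaic of progenitors, which the authors countered by breeding mutants that carried it on both alleles, and Cre- animals of the same age came from separate Cre- breeders rather than from the litters of the mutants. Whole-genome bisulfite sequencing (WGBS), which reads 5-methylcytosine (5mC) and 5-hydroxymethylcytosine (5hmC) together, and bACE-seq, which reads 5hmC alone, each had 3 libraries per group, 12 in all. The paper states that retinas were pooled across animals and that both assays used DNA from the same extractions, so the assays are not independent material. The lists hold differentially methylated regions with the authors' mean level in each group, so every level below is 1 value per group, with no replicate spread, no depth and no test of its own. Below, a gain is a listed WGBS region with the higher level in Tet tcKO, and a 5hmC loss is a listed bACE-seq region with the lower level in Tet tcKO.

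Microglia are the resident macrophages of the retina and brain. They arise from yolk-sac progenitors that enter the neural tissue during development, a lineage apart from the retinal progenitors in which Chx10-Cre acts, and they make up a small share of retinal cells. Their survival depends on CSF1R, a receptor tyrosine kinase with the ligands CSF1 and IL34. CX3CR1 receives the neuronal chemokine CX3CL1, P2RY12 senses extracellular nucleotides, C1QA is a chain of the complement starter C1q, AIF1 (IBA1) is an actin-bundling protein, and TMEM119 is a membrane protein that marks resident microglia. TET enzymes oxidise 5mC to 5hmC. In whole retina a level is an average over all cells, so the state of the microglia, their number and the state of the far more numerous neural cells at these genes cannot be told apart. By IBA1 staining of sections, the paper reported more microglia in Tet tcKO retinas. Expression was not analysed here, so the presence of microglia in these samples was not checked.

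Sequences are shown for the stretches on which the account of P2ry12, C1qa, Cx3cr1 and Tmem119 turns, read 5′ to 3′ on the strand of the gene (minus for all 4), with each CpG in capitals. The promoters are RefSeq sequence on GRCm38, from 250 bases before to 50 after the start of transcription, at chr3:59262936-59263235 for P2ry12 and chr9:120068247-120068546 for Cx3cr1. The table used held a promoter for 3 of the 6 genes, the other being Aif1. The other sequences are GRCm38 under a gain, with 1 base added so that the last CpG is whole.
P2ry12 promoter, most of it inside a gain: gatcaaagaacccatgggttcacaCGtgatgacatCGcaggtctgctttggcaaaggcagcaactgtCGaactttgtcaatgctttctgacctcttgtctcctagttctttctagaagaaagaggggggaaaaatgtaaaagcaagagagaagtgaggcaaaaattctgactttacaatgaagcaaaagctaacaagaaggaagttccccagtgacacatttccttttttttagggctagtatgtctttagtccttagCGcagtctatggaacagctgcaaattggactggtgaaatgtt
Cx3cr1 promoter, on no gain: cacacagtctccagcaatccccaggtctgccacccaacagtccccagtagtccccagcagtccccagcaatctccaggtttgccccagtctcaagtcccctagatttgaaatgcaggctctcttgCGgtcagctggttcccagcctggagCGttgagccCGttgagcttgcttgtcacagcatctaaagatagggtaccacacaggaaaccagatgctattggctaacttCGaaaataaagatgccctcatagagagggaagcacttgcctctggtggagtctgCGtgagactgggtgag
Cx3cr1 intron, the gain nearest its start sites: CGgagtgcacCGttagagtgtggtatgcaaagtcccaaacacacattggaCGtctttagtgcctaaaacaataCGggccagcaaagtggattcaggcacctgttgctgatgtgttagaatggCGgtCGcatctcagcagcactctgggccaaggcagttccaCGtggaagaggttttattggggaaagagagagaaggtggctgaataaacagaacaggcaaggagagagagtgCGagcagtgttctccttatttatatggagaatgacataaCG
C1qa coding exon and adjoining intron, a gain of low control level: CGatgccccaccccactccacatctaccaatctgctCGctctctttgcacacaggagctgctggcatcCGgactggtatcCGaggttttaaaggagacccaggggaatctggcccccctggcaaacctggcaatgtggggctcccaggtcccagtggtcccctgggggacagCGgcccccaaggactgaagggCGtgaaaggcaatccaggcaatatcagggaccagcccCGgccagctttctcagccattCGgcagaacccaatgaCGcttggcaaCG
Tmem119 downstream flank, a gain with the same bounds as a 5hmC loss: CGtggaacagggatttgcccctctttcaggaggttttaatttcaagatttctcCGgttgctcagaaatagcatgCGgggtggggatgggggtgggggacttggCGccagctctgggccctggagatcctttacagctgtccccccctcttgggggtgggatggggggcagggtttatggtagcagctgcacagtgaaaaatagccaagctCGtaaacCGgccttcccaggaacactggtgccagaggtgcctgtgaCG
The P2ry12 promoter holds 4 CpGs, the Cx3cr1 promoter 5 and the Aif1 promoter 1, beside a median of 7 over the 32851 promoters of the table. AGGAAGT, a core sequence bound by PU.1, the myeloid transcription factor encoded by Spi1, was searched on both strands. It was found once, at base 199 of the P2ry12 promoter, and not in the windows of Cx3cr1 or Aif1. It occurred in 9.35% of all promoters of the table.

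The regions at the 6 loci all pointed one way in each assay. There were 45 gains and 0 WGBS regions with the lower level in Tet tcKO, and 176 5hmC losses and 0 bACE-seq regions with the higher level in Tet tcKO. Every one of the 6 loci held at least 1 gain, where 75.0% of all gene loci did, and every one held 5hmC losses, where 88.9% of all gene loci did. A WGBS region of the opposite direction was found at 4.09% of all gene loci and a bACE-seq region of the opposite direction at 0.320%. The share of loci with a gain grew with their length. When all loci were split by length into 4 groups of equal size, it was 58.7% in the shortest, to which C1qa belongs, 66.7% in the next, with Aif1 and Tmem119, 81.4% in the next, with Csf1r, and 93.3% in the longest, with Cx3cr1 and P2ry12. A gain at each of 6 loci is therefore little above the background.

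Over the 45 gains, weighted by their 415 CpGs, modified cytosine averaged 66.1% in Cre- and 78.8% in Tet tcKO, 12.7 percentage points more. Of these CpGs, 270 belong to the Cx3cr1 locus, whose long GENCODE span is described below. Without Cx3cr1 the means were 61.6% and 75.6%, 14.0 points apart. With RefSeq spans they were 61.6% and 75.6%, 13.9 points apart. Over all 191164 gains of the list the means were 56.7% and 74.1%, 17.4 points apart. Over the 176 5hmC losses, with 2062 CpGs, 5hmC averaged 12.1% in Cre- and 2.92% in Tet tcKO, so that 24.2% of the control level was kept. Over all 592697 losses the means were 16.1% and 3.86%, with 24.0% kept. The control 5hmC level of the microglia loci was thus below that of listed regions in general. The share kept depends on how much of the signal is unconverted cytosine: with an assumed 2 points subtracted from both levels it was 9.14% at the 6 loci (0.920% in Tet tcKO) and 13.2% over all losses, so the near equality of the shares as listed does not hold there.

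The control level of the 45 gains ran from 15.4% to 89.7% with a median of 68.8%, and the mutant level from 21.1% to 94.5% with a median of 81.3%. In 10 of the gains the control level was below 50%, and these differed by 5.70 to 20.1 points. The 8 gains at 80% or more in Cre- differed by 4.80 to 9.55 points, which was 36.5% to 58.3% of the room left up to full modification. Spearman's rho between control level and change was -0.74 over the 45 gains and -0.67 over all gains of the list. These points share libraries, neighbouring CpGs and the control level itself, which enters both measures. For 5hmC the control levels ran from 3.87% to 37.0% with a median of 10.8%, and the mutant levels from 0.0918% to 8.18% with a median of 2.51%. Each of the 176 regions lay below 10% in Tet tcKO.

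**Figure D1:**
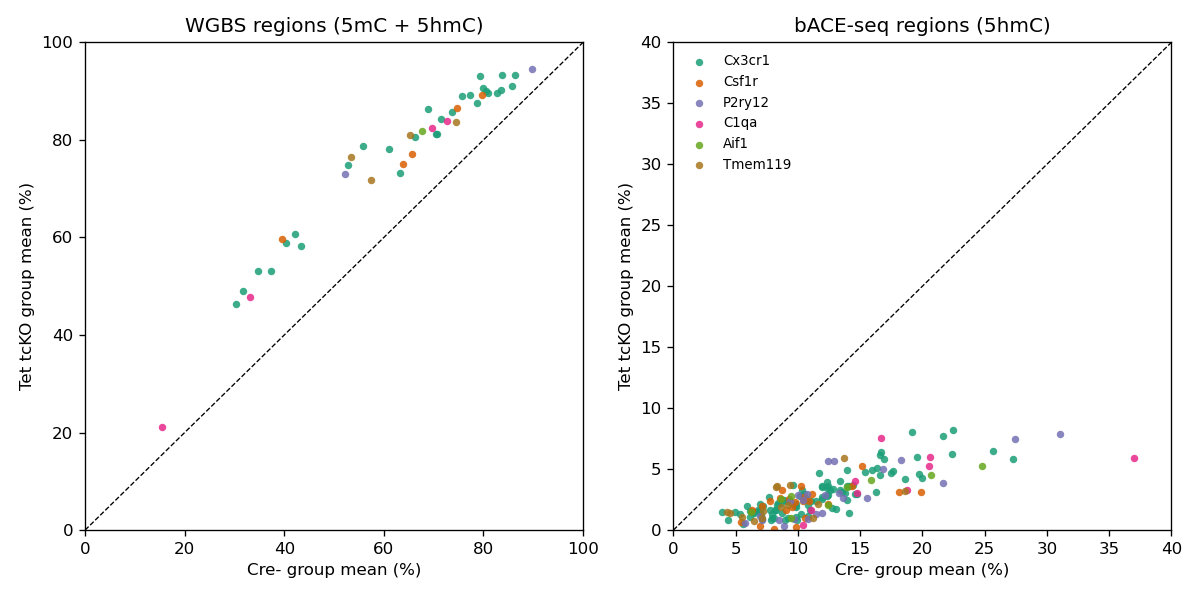
Mean level in Tet tcKO (vertical axis, %) against the mean level in Cre- (horizontal axis, %), 1 point per listed region, coloured by gene, with WGBS on the left (45 regions) and bACE-seq on the right (176 regions, axes to 40%). The dashed line marks equal levels: all WGBS points lie above it, all bACE-seq points below it, and the points of the 6 genes are intermixed.

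The share of a locus that the regions cover was measured over its CpGs. Gains held a median of 9.18% of the CpGs of the 6 loci, beside 6.41% over all genes. With RefSeq spans of the 6 genes the median was 7.54%, and Cx3cr1 held 5.70%. By GENCODE spans C1qa had the highest share, 18.4%, followed by Tmem119 with 11.3%, Cx3cr1 with 10.2%, Csf1r with 8.18%, P2ry12 with 5.51% and Aif1 with 3.35%. C1qa lay above 85.7% of all genes and Aif1 above 35.0%, so the 6 were spread over much of the distribution. The order rests on the flanks: in the genes alone the share was 35.9% at C1qa, 7.69% at Aif1 and 2.94% at Tmem119, which then came last, and 4.07% as the median over all genes. 5hmC losses held a median of 46.8%, beside 36.6% over all genes. C1qa stood at 59.8%, and the other genes lay between 45.7% at Csf1r and 48.9% at Tmem119. With RefSeq spans Cx3cr1 stood at 34.5%, and the median of the 6 was again 46.8%. In the GENCODE genes without flanks, the 5 genes other than C1qa ranged more widely, from 39.8% at P2ry12 to 58.2% at Tmem119, with C1qa at 67.2%.

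**Figure D2:**
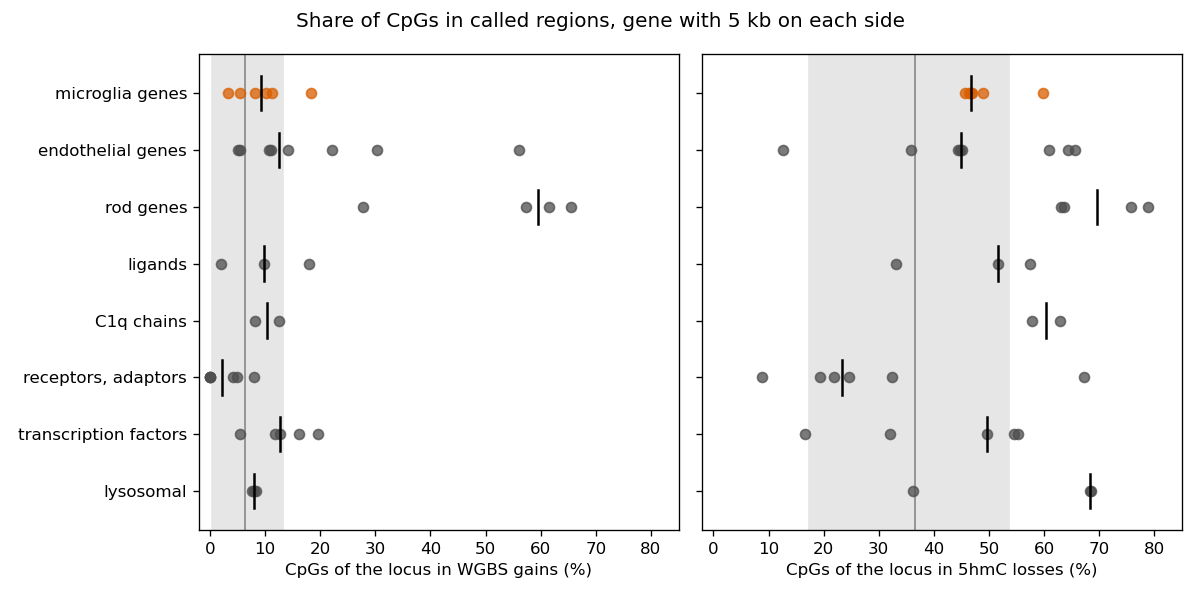
Share of the CpGs of each gene locus (horizontal axes, %) inside gains (left) and 5hmC losses (right), 1 point per gene, with the microglia genes in orange, the other gene lists in grey and a black bar at each list's median. The grey band spans the middle of all gene loci from the 25th to the 75th percentile and the grey line is their median, 6.41% on the left and 36.6% on the right; the rod genes lie to the right of the band in both panels, whereas most microglia genes lie inside it.

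Among the receptors, P2ry12 had its largest change at the start of the gene. P2ry12 (chr3:59216272-59262871, minus strand) lies inside Med12l, a gene on whose span all of its regions fell. The gain at chr3:59261893-59263210 covered the start site and had 20 CpGs, more than any other of the 45 gains except 2 in the extended span of Cx3cr1 described below. It went from 52.3% to 73.1%, a difference of 20.8 points. It takes in most of the promoter printed above, with all of its CpGs. The only other gain, in an intron at chr3:59258192-59258389, went from 89.7% to 94.5%, the smallest change of the 45.

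The 24 5hmC losses of P2ry12 averaged 12.2% in Cre- and 2.72% in Tet tcKO, with 22.4% kept. Of these, 8 overlapped the window of 2 kb on each side of one of its 4 start sites. At the start sites near the gene's end, chr3:59260489-59261329 went from 15.5% to 2.61%, chr3:59262224-59262509 from 10.8% to 0.939%, chr3:59262976-59263867 from 10.8% to 2.96% and chr3:59264830-59265396 from 6.93% to 1.14%. At the starts of short transcripts within the gene, chr3:59220811-59221004 went from 8.92% to 0.351%, chr3:59227237-59227485 from 5.75% to 0.601%, chr3:59227713-59227862 from 12.4% to 5.68% and chr3:59228873-59229426 from 16.9% to 5.02%. These 8 thus kept very different shares of their control level, more at the last pair than at the others. The largest 5hmC change of the locus lay past the 3′ end, at chr3:59214986-59215184, from 31.1% to 7.87%.

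Csf1r (chr18:61100598-61132149, plus strand) had 5 gains, all on the gene and on no other annotated gene. In the window of 2 kb around a start site, chr18:61106727-61107178 went from 39.6% to 59.7%, the largest change of the locus. Region chr18:61107703-61107983, under 1 kb further on and also in such a window, went from 79.7% to 89.1%. Both lie in introns. The other 3 gains went from 74.7% to 86.6%, from 65.8% to 77.2% and from 63.8% to 75.1%. Control levels thus ranged widely within the gene, and the lowest belonged to the region nearest the start. The 24 5hmC losses averaged 11.5% and 2.54%, with 22.0% kept, the lowest share of the 6 genes by GENCODE spans. C1qa with 22.1% and P2ry12 with 22.4% were close, and Cx3cr1 kept 21.2% in its shorter RefSeq span, described below. Of the 24 losses, 4 overlapped the window of 2 kb around a start site. Region chr18:61104147-61104570 went from 9.56% to 1.88%, chr18:61105281-61106372 from 14.3% to 3.66%, chr18:61106581-61106976 from 10.4% to 2.35% and chr18:61107618-61109676 from 18.1% to 3.16%. The last holds 36 CpGs. The region with the largest change, chr18:61134451-61134891, from 19.9% to 3.16%, lay on the neighbouring gene Hmgxb3, as did 7 of the 24.

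Cx3cr1 had no gain within 2 kb of any of its 3 start sites. Its GENCODE span (chr9:119901616-120069879, minus strand) is far longer than its RefSeq span (chr9:120048683-120068296), because 1 annotated transcript runs on across Xirp1, Csrnp1, Ttc21a, Gorasp1, Wdr48, 1700019L13Rik and Gm47043. Of the 29 gains in the GENCODE locus 19 lay on another gene, as did 62 of the 95 5hmC losses, 2 of them on Gm33858 near the start. The counts for Cx3cr1, which make up most of those of the 6 genes, therefore describe this stretch of chromosome 9 more than the receptor gene. The GENCODE locus averaged 68.5% in Cre- and 80.5% in Tet tcKO over its gains. Over its 5hmC losses the Tet tcKO level was 3.03%, which is 25.2% of the Cre- level. Its largest WGBS change, from 55.8% to 78.8% at chr9:120020979-120021438, was on Xirp1, which encodes a protein of striated muscle.

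With the RefSeq span, a choice made after the regions had been seen, Cx3cr1 held 3 gains with 5.70% of the CpGs of the locus and 16 5hmC losses with 34.5% of them. The gains averaged 61.6% and 75.1%. The nearest to the start, the intron sequence printed above (chr9:120065263-120065536), went from 73.7% to 85.8%, and the next, at chr9:120054862-120055267, from 43.4% to 58.2%. The 16 losses averaged 8.82% and 1.87%, with 21.2% kept. Around the start sites 6 small 5hmC losses were listed although no gain was. From the gene outwards, chr9:120066551-120066715 went from 5.38% to 1.30%, chr9:120068115-120068261 from 6.49% to 1.44%, chr9:120068792-120069083 from 5.59% to 0.504% and chr9:120069806-120069943 from 6.93% to 1.54%. Upstream of the gene, chr9:120070825-120071376 went from 11.0% to 1.61% and chr9:120071703-120072227 from 9.85% to 1.89%. The control level of all 6 was below the mean of 12.1% over the losses at the 6 loci, by little in the upstream region at 11.0%. The coding exon also carried low 5hmC, at chr9:120051681-120051875 from 3.87% to 1.50% and at chr9:120051929-120052524 from 6.49% to 1.45%. The largest 5hmC change in the GENCODE locus, at chr9:119935180-119936100 on Gorasp1, went from 27.3% to 5.85%.

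C1qa, the smallest of the genes (chr4:136895917-136898803, minus strand), had the lowest mean WGBS levels in its gains. Its 4 gains averaged 52.3% in Cre- and 64.4% in Tet tcKO. In both groups the level was lower towards the 3′ end, from 72.7% and 84.0% in the first intron at chr4:136898261-136898560, within 2 kb of the start, to 33.2% and 47.8% over the last coding exon at chr4:136896504-136896781, printed above, and 15.4% and 21.1% in the 3′ untranslated part at chr4:136896010-136896098. The last of these had the lowest level of the 45 gains in both groups. The coding-exon region showed the largest change of the locus, 14.6 points. The fourth gain, chr4:136892333-136892640, from 69.7% to 82.4%, lay on C1qc, the neighbouring gene for another C1q chain.

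One 5hmC loss of 45 CpGs, chr4:136896504-136898816, ran from the last coding exon of C1qa to its start and went from 14.7% to 3.03%. Upstream, chr4:136899207-136899626 went from 14.6% to 4.01% and chr4:136900762-136901710 from 18.7% to 3.29%. At the far upstream edge, chr4:136903774-136904119 went from 37.0% to 5.89%, the highest control 5hmC and the largest 5hmC change among the 176 regions. Most of that region lies beyond the edge of the locus. The 9 losses of the locus averaged 16.4% and 3.62%, with 22.1% kept, the highest control 5hmC of the 6 genes. Of the 9, 2 lay on C1qc.

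Aif1 (chr17:35170991-35176068, minus strand) had 1 gain. It lay at the 3′ end of the gene, chr17:35170963-35171276, over coding exon and past the gene's end, within 2 kb of the start of a short transcript, and went from 67.6% to 81.8%. No gain was listed at the upstream start sites of the gene. The 9 5hmC losses averaged 14.8% and 3.41%, with 23.0% kept. Those within 2 kb of a start site were chr17:35170232-35171089, from 9.46% to 2.82%, chr17:35172239-35173364, from 20.7% to 4.54%, chr17:35174447-35175251, from 14.0% to 3.55%, and chr17:35176702-35177364, from 12.4% to 2.09%. The largest change, from 24.8% to 5.26% at chr17:35165978-35166531, was in the downstream flank on Gm17705, the only one of the 9 on another gene.

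Tmem119 (chr5:113793729-113800516, minus strand) had gains at its edges and none within 2 kb of its start. Upstream, chr5:113804034-113804563 went from 57.4% to 71.9%. At the 3′ end chr5:113793988-113794155 went from 74.5% to 83.8%, and downstream chr5:113792283-113792636 went from 65.3% to 81.0%. The downstream region printed above, chr5:113789498-113789754, went from 53.4% to 76.4%, a change of 23.0 points, at which it was level with the Xirp1 region of the Cx3cr1 locus as the largest of the 45. Its 5hmC went from 18.6% to 3.20% over the same bases, the largest 5hmC change of the locus. Of the 5hmC losses at Tmem119, 4 overlapped the window of 2 kb around the start, and none of these covered the start itself. Region chr5:113798161-113799076 went from 9.17% to 2.08%, chr5:113800061-113800156 from 13.7% to 5.94%, chr5:113800256-113800416 from 9.37% to 3.70% and chr5:113801943-113802137 from 6.51% to 0.778%. The 15 5hmC losses averaged 8.72% and 2.19%, the lowest levels of the 6 genes by GENCODE spans, with 25.1% kept. In its RefSeq span Cx3cr1 had 8.82% in Cre- and 1.87% in Tet tcKO.

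**Figure D3:**
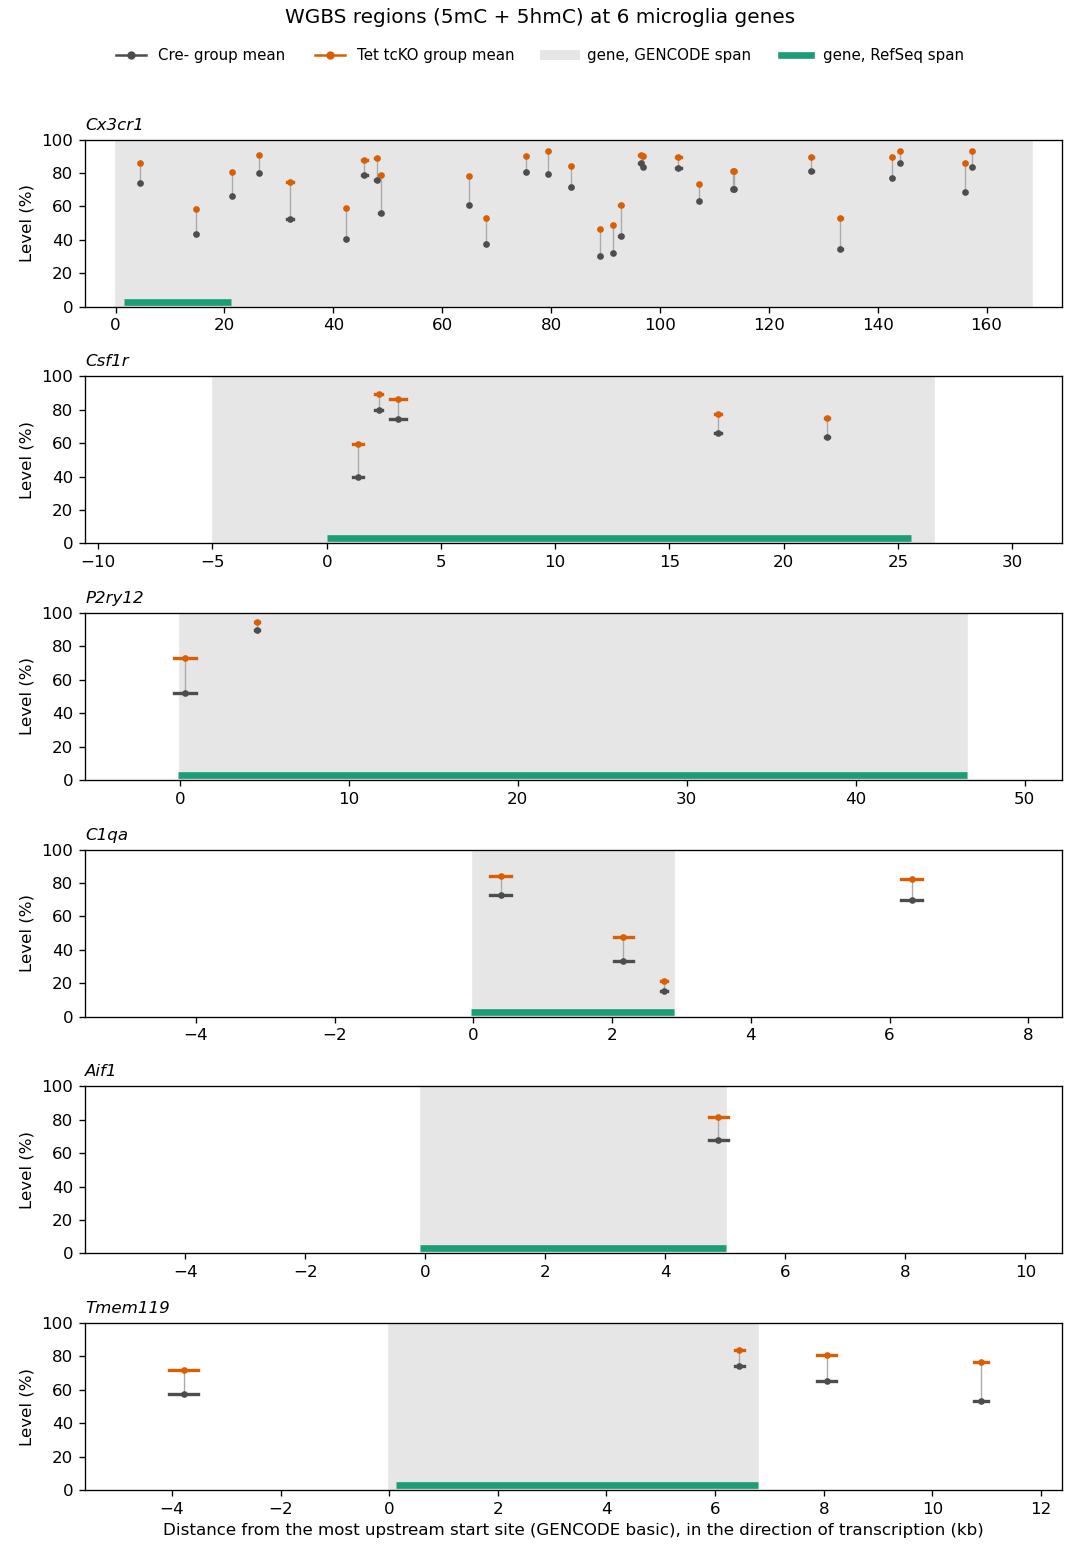
WGBS levels (vertical axis, %, 5mC and 5hmC together) of the gains at each gene against distance from its most upstream GENCODE basic start site in the direction of transcription (kb), with Cre- group means in grey, Tet tcKO group means in orange and a bar for each region's length. The shaded span is the GENCODE gene and the green bar the RefSeq gene: the longer of the 2 gains of P2ry12 sits on the start, those of Tmem119 at the 3′ end and in the flanks, and most of the 29 in the Cx3cr1 panel lie outside the RefSeq gene.

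Set side by side by position, the 5 gains whose midpoints lay within 2 kb of a start site averaged 60.4% in Cre- and 76.8% in Tet tcKO, and the 33 in introns 69.2% and 81.0%. A gain overlapped the start-site window of 4 of the 6 genes (Csf1r, P2ry12, C1qa and Aif1), where 48.5% of all genes had one. A 5hmC loss overlapped that of 6 of 6, where 79.3% of all genes had one. The 24 losses with midpoints near a start averaged 12.2% and 2.85%, the 109 in introns 12.3% and 3.03%, and the 5 in coding exons 6.20% and 1.76%. By midpoint, start-site and intron 5hmC had nearly the same level in each group, and the 5 coding-exon regions about 6 points less in Cre-. Cx3cr1 supplied 29 of the 33 intron gains and 82 of the 109 intron losses, most of them outside its RefSeq gene. It and Tmem119 held 35 and 20 of the 73 CpGs in the coding-exon losses. Losses that touched a coding exon but had midpoints elsewhere ran in Cre- from 5.46% at chr18:61114900-61115135 (Csf1r) to 20.7% at chr17:35172239-35173364 (Aif1). CpGs within 500 bp of the 5′ end of the GENCODE gene numbered 24 at Tmem119, 18 at C1qa and 15 at Cx3cr1. They numbered 12 at P2ry12, 10 at Csf1r and 9 at Aif1, beside a median of 20 over all genes. At Csf1r and Aif1 that end is not one of the basic start sites, which had 10 to 13 CpGs at both genes.

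**Figure D4:**
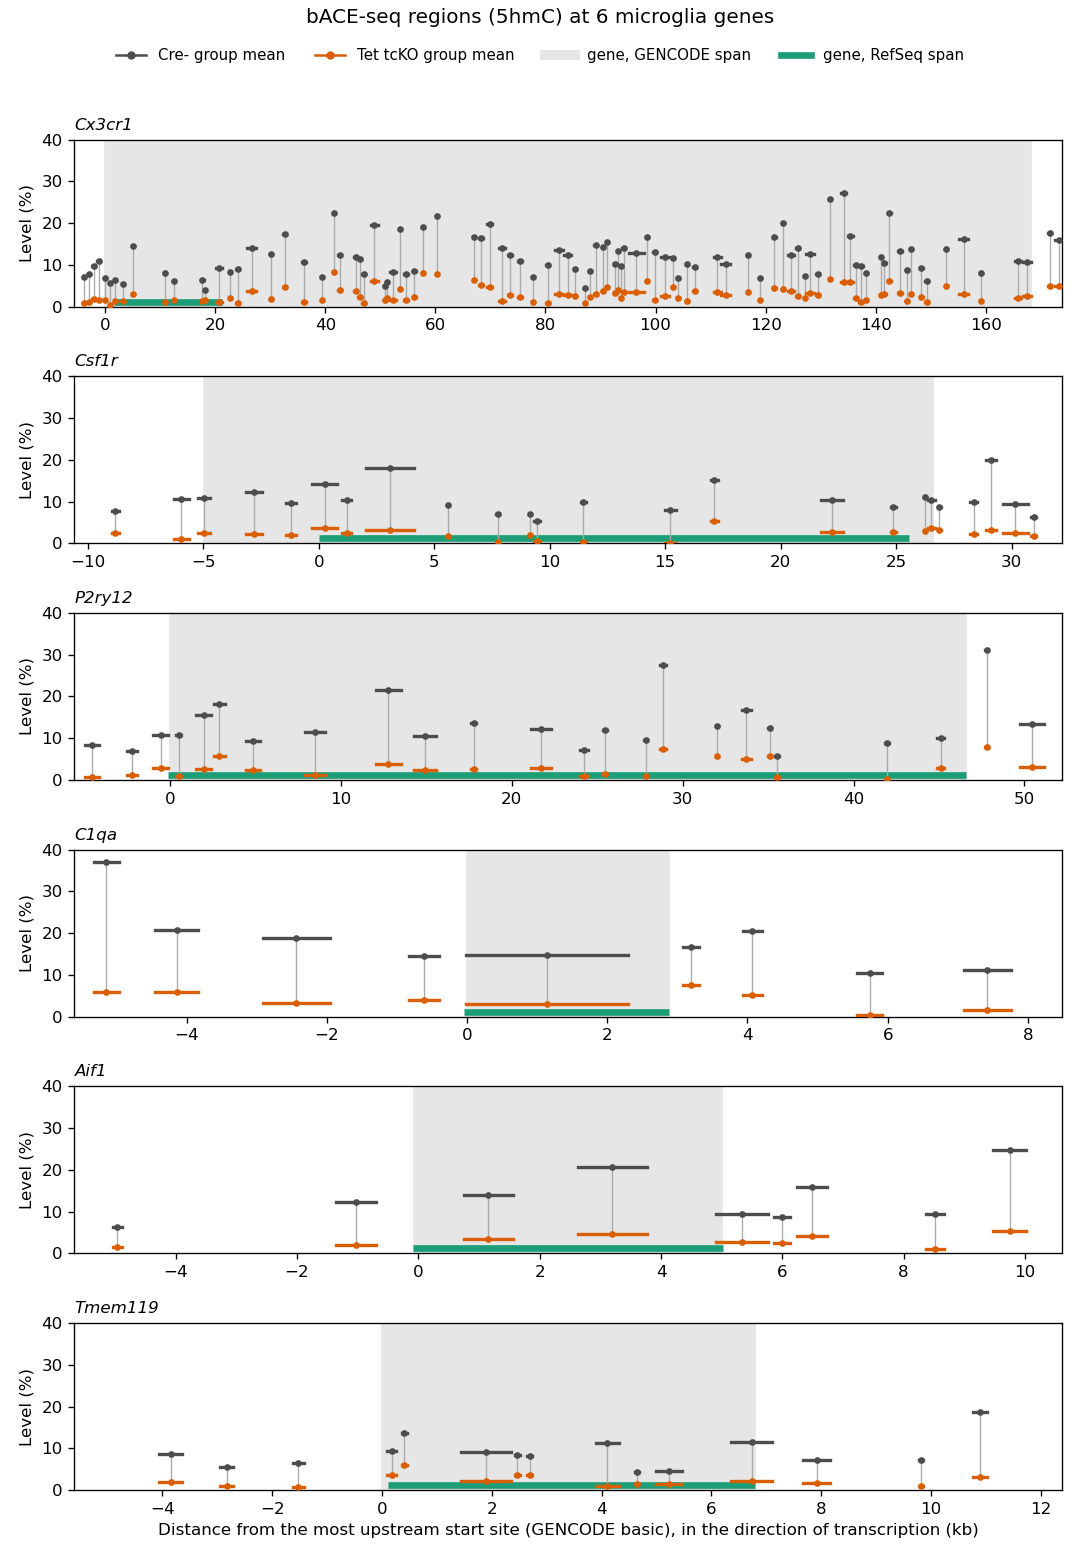
5hmC levels (vertical axis, %, to 40%) of the bACE-seq losses at each gene, drawn as in the plot of WGBS levels by distance from the start site. The regions run through gene and flanks at all 6 loci, and each Tet tcKO mean (orange) lies below 10%.

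Of the 45 gains, 36 (80%) overlapped a 5hmC loss, beside 81.1% of all gains. Where they did, WGBS averaged 67.1% in Cre- and 79.7% in Tet tcKO, and the overlapping 5hmC regions 13.2% and 3.49%. Taking the 5hmC level from the WGBS level left 53.8% and 76.2%, a difference that stands for 5mC only as far as both assays read the same bases. The bounds were identical at 2 regions. At Csf1r (chr18:61122554-61122846) 5hmC went from 15.2% to 5.24% as WGBS went from 65.8% to 77.2%, and at Tmem119 the values were those given above. Of the 176 5hmC losses, 142 overlapped no gain. They averaged 11.6% in Cre-, and the 34 that overlapped one averaged 13.1%.

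The distance of 5 kb sets which flanking regions enter. Regions that straddle the edge were counted, and with at least 50% of the region required inside the locus the 5hmC losses numbered 174. The gain nearest to the edge on the inside was the one of Tmem119 printed above, 769 bp from it. The nearest outside was chr4:136890530-136890588, 329 bp beyond the C1qa locus, from 77.9% to 84.0%. For 5hmC the nearest inside was chr3:59267040-59267867 at P2ry12, 4 bp within the edge, from 8.48% to 0.830%, and the nearest outside chr5:113788298-113788624 at Tmem119, 105 bp beyond it, from 16.7% to 2.89%.

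Vascular endothelial genes, also of a lineage outside the neural retina, and rod photoreceptor genes were measured in the same way for comparison. Gains held a median of 12.6% of the CpGs at the 8 endothelial loci, from 5.03% at Tie1, a receptor of vessel walls, to 56.0% at Cldn5, a tight-junction protein, and 59.4% at the 4 rod loci, from 27.8% at Pde6a to 65.4% at Nr2e3. With the flanks, the highest microglia gene, C1qa at 18.4%, lay below the lowest rod gene, but in the genes alone it lay above it, with 35.9% beside 27.4% at Pde6a. The list medians kept their order there, with 9.13% for the microglia genes, 13.3% for the endothelial and 60.9% for the rod genes. Mean levels in the gains were 50.5% and 66.4% at the endothelial loci and 43.7% and 70.7% at the rod loci. The change was 15.9 and 27.0 points there, beside 12.7 at the microglia loci, or 14.0 without Cx3cr1. For 5hmC losses the median share was 44.9% at endothelial loci, from 12.7% at Tek to 65.6% at Kdr. At rod loci it was 69.7%, from 63.1% at Nrl to 78.9% at Nr2e3. In the genes alone the medians lay closer, with 48.6% for the microglia, 42.9% for the endothelial and 54.9% for the rod genes. Rod genes then ran from 32.4% at Nrl, below the lowest microglia gene, P2ry12 at 39.8%, to 75.1% at Pde6a. The control 5hmC level was 14.0% at endothelial, 22.0% at rod and 12.1% at microglia loci. The share kept was 24.4%, 24.6% and 24.2% as listed, but 11.8%, 17.0% and 9.14% with 2 points subtracted from both levels. With 1 mean per group, none of these differences between lists could be tested over samples.

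Further genes of microglial pathways numbered 19, of which 16 held a gain, 8 held one over a start-site window, and all 19 held 5hmC losses, beside 75.0%, 48.5% and 88.9% of all genes, so these counts were near the background. Gains held a median of 8.03% of their CpGs and 5hmC losses 49.7%, both near the medians of the 6 genes. A gain overlapping a start-site window was listed at each of the 3 ligand genes. This is a small number to set against the 48.5% of all genes that had one. At Csf1 a gain of 6 CpGs upstream, chr3:107761133-107761456, went from 75.3% to 88.9%. At Il34, where 9.77% of the CpGs lay in gains, chr8:110805669-110805952 went from 46.7% to 60.7%. At Cx3cl1, where that share was 18.0%, chr8:94771086-94771295 went from 58.5% to 75.1% and chr8:94773965-94774184 from 28.3% to 44.2%. These ligands are made largely by neurons and other resident cells rather than by microglia.

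Of the 2 other C1q chains, C1qc had a gain in its start-site window, the one it shared with the C1qa locus. None of the 6 surface receptors and adaptors had one in a start-site window, where 48.5% of all genes did. P2ry13, Gpr34 and Siglech had no gain at all. One was present at 75.0% of all gene loci and at 58.7% to 81.4% of those in their length groups. The median share of CpGs in gains was 2.13% for that group. Among the 5 transcription factors, Irf8, needed for microglial development, had gains in a start-site window from 63.1% to 77.5% and from 78.1% to 89.3%. Sall1, a regulator of microglial identity, had one upstream of the gene that reached into the window, from 9.87% to 16.5%. Runx1, a regulator of blood formation, had one in a window from 38.3% to 64.5% and another from 84.2% to 92.1%. Over the 19 loci the gains averaged 57.4% and 71.4% and the 5hmC losses 13.2% and 3.28%, with 24.8% of the 5hmC kept.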

How the data were processed

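The 12 libraries were grouped by their titles. By the methods of the study and the submitters' processing notes, reads were trimmed (Trim Galore 0.4.4) and mapped to mm10 by Bismark 0.18.2, filtered at mapping quality 10 and deduplicated, and MethylDackel 0.6.1 gave the level of each CpG. Regions came from DSS with smoothing, a Wald p under 0.01 per CpG, at least 3 CpGs and 50 bp, and merging within 50 bp. The values are the authors' deposited group means, a fraction from 0 to 1, printed as percent. The deposited difference (Cre- minus Tet tcKO) and the summed Wald score were not used. The order of the groups follows the list names. A site absent from a list may still have differed, and replicate spread and depth were not analysed here.

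Loci were intersected with the lists by scripts (Python 3.11.15, pandas 2.3.3, numpy 2.4.6; figures, matplotlib 3.10.9) that were tested on simulated loci. GENCODE M21 basic start sites and GRCm38 bases were used. All 193836 WGBS and 592906 bACE-seq regions start and end on the C of a CpG there. Means were weighted by CpGs. A start-site window is 2 kb on each side. A share kept is the Tet tcKO over the Cre- mean. Of each gene, the text names every region over a start-site window and the largest change in each list, and some others chosen after their values were seen. No test was run, since each list gives 1 mean per group. The members and lists were chosen with earlier results of these data known. Alternatives were other flanks, base pairs, at least 10 CpGs, larger differences, overlaps of at least 50%, an assumed background of 1 or 2 points, and leaving out each gene. RefSeq spans, and the compared lists without flanks or with points subtracted, were added after seeing the data. Single values of some genes of the wider list are not reported here.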

Additional observations from a re-analysis of the deposited data

How the results depend on the processing

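The 29 values were recomputed in 221 ways: 170 moved by less than the SD over the 6 loci (counts, by less than 1.5 times) and 51 by more. None of these choices can change the direction of a region. The 45 gains became 12 with at least 10 CpGs, 5 with a difference of at least 0.2 and 19 with RefSeq spans, and 16 to 44 when each gene was left out, lowest without Cx3cr1. The 176 5hmC losses became 82, 3 and 94 in these settings, 59 with a difference of at least 0.1, and 81 to 167 when each gene was left out, again lowest without Cx3cr1. A difference of at least 0.1 gave a Cre- WGBS level of 57.7%, a change of 15.8 points, 5hmC of 16.9% and 4.04%, and 15.2% of CpGs in 5hmC losses, since it keeps the larger changes. That share was 30.0% by base pairs and 31.9% with at least 10 CpGs. The share of 5hmC kept was 22.5% with RefSeq spans and 22.7% to 24.5% without each gene in turn or the flank. With 1 or 2 points subtracted from both levels, the Tet tcKO 5hmC was 1.92% or 0.920% and the share kept 17.3% or 9.14%, so the residual level rests on a conversion background that was not analysed here. Without flanks, gains held 35.9% of the CpGs of C1qa and 2.94% of those of Tmem119. No paired analysis was possible because the lists give 1 mean per group and no replicate values. Depth behind each level was not analysed here.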
